A study of Mus musculus with 18 samples.

Results

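Immortalized mouse embryonic fibroblasts (MEFs) with a p65 knock-out (p65 KO), treated with TNF for 90 min, were set against untreated cells of the same line. The members were the columns labelled for these groups in the deposited count table, 2 libraries with TNF and 2 without, which is 4 of the 18 libraries in all. The other libraries were p65 KO MEFs after 45 min of TNF, and MEFs with an IKK2 knock-out (IKK2 KO) and wild-type (WT) MEFs after 45 and 90 min of TNF or untreated, again with 2 libraries a group. TNF alpha was used at 10 ng/ml in each treated group, and each genotype was 1 immortalized line grown in serum. The labels do not say whether the 2 libraries of a group came from separate cultures, so p-values measure the spread between these libraries, which may be technical. Where lines are compared, genotype and line cannot be told apart.

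TNF receptor 1 assembles a signalling complex that activates the IKK kinases and, through TAK1, the stress kinases p38 and JNK. IKK marks the IκB proteins for destruction and so frees NF-κB, of which p65 (gene Rela) is the main transcription-activating subunit in fibroblasts. JNK and p38 act in parallel on AP-1 and ATF factors, which bind AP-1 sites and cyclic AMP response elements (CRE), and they also lengthen the life of short-lived messages. The comparison addresses what TNF still changes at 90 min in a line without p65.

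The targeted gene was read first. Rela (ENSMUSG00000024927, GRCm38 chr19:5637483-5648130) had 6.34 and 6.55 TMM-scaled CPM (counts relative to library size, adjusted for library composition) in p65 KO MEFs with 90 min of TNF. It had 5.25 and 6.11 CPM in untreated p65 KO MEFs. The same gene averaged 109.1 ± 2.06 CPM in WT MEFs with 90 min of TNF and 63.8 ± 0.879 CPM in untreated WT MEFs (SD, n = 2 each). The p65 KO libraries were thus far below WT, with reads left at the locus, and the labels do not give which part of the gene was removed. Within p65 KO the change with TNF was 0.18 ± 0.11 on the log2 scale (SE, adjusted p = 0.45), whereas it was 0.77 ± 0.04 in WT. Ikbkb, which encodes IKK2, had 43.7 and 46.2 CPM with TNF and 42.7 CPM in both untreated p65 KO libraries, a change of 0.07 ± 0.05 (adjusted p = 0.41).

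Total counts were 23.4 M and 22.7 M in the TNF libraries and 20.8 M and 22.9 M in the untreated libraries of p65 KO MEFs, within the 16.7 M to 23.5 M of the series. Ribosomal RNA genes, mitochondrial ones included, took 5.61% and 6.55% of the counts with TNF and 8.66% and 8.92% untreated. All mitochondrial genes together took 7.98% and 9.0% with TNF and 11.3% and 11.6% untreated. Both mitochondrial ribosomal RNA genes were called lower with TNF, and of 4 other ribosomal RNA genes tested 0 passed. Small nuclear RNA genes took 0.0569% and 0.054% with TNF and 0.0291% and 0.0322% untreated. The part of these shares in the results below was not tested. Fibroblast markers summed to 3710 to 3770 CPM with TNF and 3800 CPM untreated, with Vim, Col1a1 and Col1a2 present, while Thy1 and Lum, which mark many fibroblasts, were at 3 counts or fewer in each group. Markers of epithelium summed to 0.783 to 1.11 CPM with TNF and 0.502 to 0.623 CPM untreated, with Krt5 among 7 at 0. Endothelial ones summed to 0.573 to 0.665 CPM with TNF and 0.332 to 0.411 CPM untreated (Tek, Tie1 and Emcn among 7 at 0). Myeloid ones summed to 1.41 to 1.56 CPM with TNF and 1.78 to 1.87 CPM untreated (Adgre1, Itgam, Lyz2, Tyrobp and Aif1 among 8 at 0). Muscle ones summed to 4.67 to 5.2 CPM with TNF and 5.39 to 5.73 CPM untreated (Myod1, Myog, Ckm and Actc1 among 7 at 0), and adipocyte ones to 0.205 to 0.587 CPM with TNF and 0.374 to 0.548 CPM untreated (Adipoq, Plin1 and Lep among 6 at 0). Neural markers summed to 203 to 204 CPM with TNF and 212 to 221 CPM untreated, of which Sox2 made 150.8 CPM with TNF and 162.6 CPM untreated, with Rbfox3 and Snap25 at 0. In such bulk samples fewer cells of a type and less RNA per cell cannot be told apart.

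At 90 min of TNF the p65 KO line had 1058 genes past an adjusted p of 0.05 by edgeR's quasi-likelihood test, 6.48% of the 16322 tested. Of these, 663 were higher with TNF (4.06% of all tested) and 395 were lower (2.42%). Most of the changes were small, with a median size of 0.2 on the log2 scale, or 1.15-fold, among the genes called. At 2-fold or more, 51 genes were called (0.312% of those tested), 38 higher (0.233%) and 13 lower (0.0796%). Leaving out any 1 of the 4 libraries left 452 to 572 calls, with 331 to 394 higher and 116 to 186 lower, and DESeq2 called 354. A test against a change of 1.2-fold called 83, of which 69 were higher and 14 lower.

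Among protein-coding genes with at least 2 CPM in the higher group and no overlap between groups, Lif and Cxcl1 rose most. Lif (chr11:4257557-4272514), a cytokine of the interleukin 6 family, had 22.6 and 23.5 CPM with TNF and 6.3 and 5.86 CPM untreated. That is a log2 change of 1.93 ± 0.09, or 3.8-fold (SE, adjusted p = 3.6e-20). Cxcl1 (chr5:90891241-90893115), a chemokine that draws neutrophils, had 27.6 and 24.3 CPM with TNF and 8.81 and 6.81 CPM untreated. It rose by 1.74 ± 0.09 (adjusted p = 1.1e-18). Both TNF libraries were above both untreated ones for these genes, which the choice of genes required.

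Atf3 (chr1:191170296-191218039), a stress-induced bZIP transcription factor, had 11.4 and 11 CPM with TNF and 3.33 and 3.86 CPM untreated, a rise of 1.63 ± 0.11 (adjusted p = 4.4e-15). Ccl2 (chr11:82035571-82037453), the monocyte chemokine MCP-1, had 5.01 and 5.49 CPM with TNF and 1.6 and 1.95 CPM untreated, a rise of 1.55 ± 0.15 (adjusted p = 3.5e-10). Cxcl10 (chr5:92346638-92348889), a chemokine for T cells, had 5.2 and 4.63 CPM with TNF and 2.15 and 1.54 CPM untreated, a rise of 1.43 ± 0.17 (adjusted p = 7.2e-08). Both chemokines sit at low counts: summed over the 2 libraries of a group, Ccl2 had 262 counts with TNF and 82 untreated, and Cxcl10 had 246 with TNF and 84 untreated.

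Dusp8 (chr7:142079490-142095843), a phosphatase that switches off JNK and p38, had 19.6 and 17.9 CPM with TNF and 7.4 and 7.56 CPM untreated, a rise of 1.33 ± 0.09. Jun (chr4:95049034-95052222), the AP-1 subunit that JNK phosphorylates, had 96.6 and 89.8 CPM with TNF and 40 and 38.6 CPM untreated, a rise of 1.25 ± 0.05 (adjusted p = 4.6e-24). Traf1 (chr2:34941750-34961772), a TNF receptor adaptor, had 11.4 and 11.7 CPM with TNF and 5.16 and 5.77 CPM untreated, a rise of 1.07 ± 0.11. These genes more than doubled in both TNF libraries relative to the mean of the untreated ones.

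The remaining of the 14 largest rises were Tcim (1.07 ± 0.18), the antiproliferative gene Btg2 (0.97 ± 0.15), the EGF receptor ligand gene Areg (0.86 ± 0.21), the IκBα gene Nfkbia (0.84 ± 0.05), the polo-like kinase gene Plk2 (0.82 ± 0.03) and the CRE-binding factor gene Creb5 (0.80 ± 0.08). Plk2 (chr13:110395046-110400844) had 238.7 and 240.6 CPM with TNF and 135.4 and 136.5 CPM untreated. Nfkbia (chr12:55489410-55492647) had 61.2 and 58.1 CPM with TNF and 33.5 and 33.1 CPM untreated. Creb5 (chr6:53287270-53700376) had 25.2 and 24.1 CPM with TNF and 12.6 and 15.6 CPM untreated. Of these 14 genes, 13 stayed past the threshold in each alternative fit. Areg was the exception, at up to an adjusted p of 0.16 when untreated library b or TNF library b was left out.

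**Figure D1:**
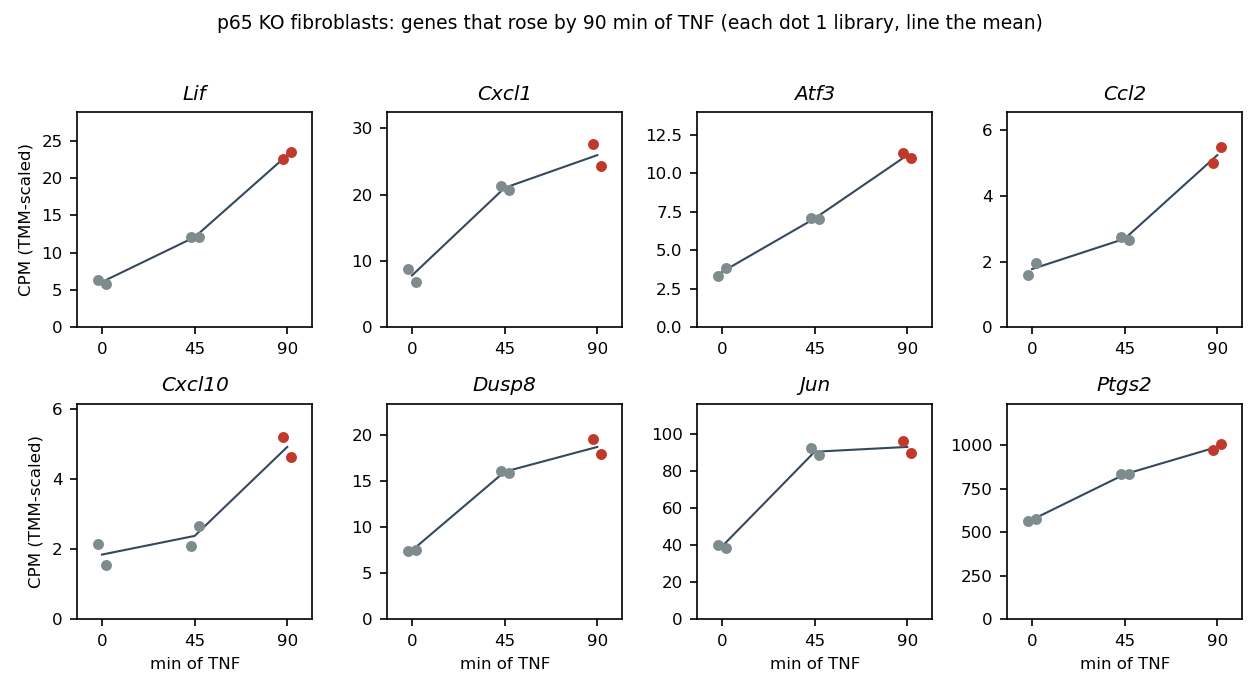
TMM-scaled CPM of 8 genes in p65 KO MEFs at 0, 45 and 90 min of TNF; each dot is 1 library (red at 90 min, grey otherwise) and the line joins the means of 2 libraries. In each panel both 90-min libraries lie above both untreated ones, which the choice of genes required for all but Ptgs2. Jun stood at 90.6 CPM on average at 45 min and 93.2 CPM at 90 min, while Ccl2 stood at 2.7 and 5.25 CPM.

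The promoters of the large risers are shown to place the binding letters of the factor families named above. RefSeq windows on GRCm38.p6, from 250 bases before to 50 after the annotated start, were found for 12 of these 14 genes. Capitals mark matches to AP-1 (TGANTCA), CRE (TGACGTCA), the CRE-like site TGACATCA, or the κB motif, each searched on both strands. The 5 windows below, printed on the strand of the gene, belong to 2 secreted factors, 2 genes of the JNK axis and the kinase Plk2.
Lif (chr11:4257318-4257617, plus strand): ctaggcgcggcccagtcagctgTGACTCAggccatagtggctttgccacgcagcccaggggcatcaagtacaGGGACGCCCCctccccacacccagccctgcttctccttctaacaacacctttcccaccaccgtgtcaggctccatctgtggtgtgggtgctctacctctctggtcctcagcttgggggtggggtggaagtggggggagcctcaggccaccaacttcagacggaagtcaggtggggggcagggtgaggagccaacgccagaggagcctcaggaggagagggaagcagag
Cxcl1 (chr5:90890995-90891294, plus strand): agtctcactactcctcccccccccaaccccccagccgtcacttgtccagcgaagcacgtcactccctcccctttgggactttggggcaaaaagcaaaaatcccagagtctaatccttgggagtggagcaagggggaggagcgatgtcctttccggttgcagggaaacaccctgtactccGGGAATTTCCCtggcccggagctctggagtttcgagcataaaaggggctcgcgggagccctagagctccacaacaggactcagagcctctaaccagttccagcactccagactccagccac
Dusp8 (chr7:142095235-142095534, minus strand): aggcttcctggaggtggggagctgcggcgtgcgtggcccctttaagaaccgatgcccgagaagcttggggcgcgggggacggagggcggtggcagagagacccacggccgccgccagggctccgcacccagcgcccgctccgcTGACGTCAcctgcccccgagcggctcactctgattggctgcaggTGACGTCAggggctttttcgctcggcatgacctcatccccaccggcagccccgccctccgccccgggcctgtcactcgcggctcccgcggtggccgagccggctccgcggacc
Jun (chr4:95052173-95052472, minus strand): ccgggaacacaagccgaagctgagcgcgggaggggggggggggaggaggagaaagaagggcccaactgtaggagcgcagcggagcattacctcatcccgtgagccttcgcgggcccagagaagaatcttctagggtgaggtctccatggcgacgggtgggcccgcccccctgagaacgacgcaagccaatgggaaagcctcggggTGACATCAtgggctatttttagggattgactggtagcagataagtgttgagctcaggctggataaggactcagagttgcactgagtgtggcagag
Plk2 (chr13:110394794-110395093, plus strand): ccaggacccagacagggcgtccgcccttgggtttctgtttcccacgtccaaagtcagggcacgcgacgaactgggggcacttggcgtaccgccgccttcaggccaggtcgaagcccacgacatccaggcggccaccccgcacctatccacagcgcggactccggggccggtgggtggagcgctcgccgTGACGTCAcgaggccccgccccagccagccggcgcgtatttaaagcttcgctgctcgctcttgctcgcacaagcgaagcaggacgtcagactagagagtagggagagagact
The Lif window holds an AP-1 match whose first base lies at -228 and a κB match at -178, and the Cxcl1 window holds a κB match at -71. The Dusp8 window holds a CRE at -107 and another at -63, the Jun window a CRE-like match at -45 and the Plk2 window a CRE at -62.

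Among the 12 promoters, 5 held a CRE (41.7%), those of Dusp8, Btg2, Areg, Plk2 and Creb5, and 2.03% of the 27020 genes with a window did. An AP-1 match stood in 3 (25%, against 8.97% of all), a κB match in 4 (33.3%, against 9.55%), those of Lif, Cxcl1, Cxcl10 and Nfkbia, and a CRE-like match in 1 (8.33%, against 4.18%). A CArG match, the serum response element core, stood in 0 of the 12 and in 1.81% of all. The 27020 genes were not limited to the protein-coding genes tested here, of which 9783 had a window, so these shares are not a matched background. Creb5 had 2 windows, and a match in either counted. No test was made, a match is not a bound site, and these 12 genes were chosen for their rise. For the genes called higher and lower as a whole, windows were found for 78.5% and 76.1%, under 80%, so the count of motifs over them is void.

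Gene lists were read beside the background of 4.06% called higher and 2.42% called lower, with a median log2 change over all genes of 0.0. The genes of the NF-κB system itself moved a little. Of 5 NF-κB subunit genes, 4 rose and Rela did not pass, with a median of 0.18. Relb had 18.6 and 17.7 CPM with TNF and 14.2 and 13.3 CPM untreated (0.40 ± 0.07, adjusted p = 0.00019). Rel rose by 0.34 ± 0.06, Nfkb2 by 0.18 ± 0.03 and Nfkb1 by 0.14 ± 0.03. The call of Nfkb1 was lost without untreated library a (adjusted p = 0.1).

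Of 12 genes tested for IκB proteins, A20 and related brakes, 5 rose and none fell. The median was 0.19, or 0.22 over the 11 with more than 3 counts. Nfkbia is given above. Tnfaip3, which encodes the deubiquitinase A20, had 20.7 and 20.2 CPM with TNF and 12.3 and 11.7 CPM untreated (0.76 ± 0.07, adjusted p = 1e-10). Nfkbie (0.57 ± 0.13), Nfkbiz (0.42 ± 0.09) and Bcl3 (0.36 ± 0.11) also passed, but less firmly. In DESeq2 the calls of Nfkbie (adjusted p = 0.092) and Bcl3 (0.69) were lost, and that of Bcl3 also under other edgeR settings (0.052 and 0.088). The call of Nfkbie was lost without either untreated library or without TNF library b, that of Nfkbiz without TNF library b, and that of Bcl3 whichever 1 of the 4 was left out, with adjusted p of up to 0.24, 0.063 and 0.36. Of 22 genes of the TNF receptor complex and IKK, Traf1 rose and the TNF receptor 2 gene Tnfrsf1b fell by 0.32 ± 0.08 (13.9 and 12.8 CPM with TNF, 16.7 and 16.6 CPM untreated). The call of Tnfrsf1b was lost without either untreated library or TNF library b, at up to 0.16, and the list median was -0.01.

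Of 18 chemokine genes listed, 8 did not pass the filter on low counts, and of the 10 tested 5 rose and 1 fell. Beside Cxcl1, Ccl2 and Cxcl10, the monocyte chemokine gene Ccl7 had 1.1 and 1.11 CPM with TNF and 0.548 and 0.332 CPM untreated. Its rise of 1.33 ± 0.36 rested on 55 and 20 counts, and its call was lost without untreated library b or without either TNF library (adjusted p of up to 0.27). Cx3cl1, the membrane-bound chemokine fractalkine, had 80.8 and 82.1 CPM with TNF and 71 and 70.4 CPM untreated, a rise of 0.21 ± 0.04. Cxcl12, the stromal chemokine, fell by 0.1 ± 0.03, and its call was lost without either untreated library or TNF library a (up to 0.39). Ccl20 and Cxcl2 had 0 counts in the 4 libraries. The median over the 10 was 0.68, and 1.24 over the 8 with more than 3 counts.

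Of 19 cytokine and growth factor genes tested, 7 rose and 1 fell, with a median of 0.16. Inhba, the subunit of activin A, had 357 and 369 CPM with TNF and 229 and 230.1 CPM untreated, a rise of 0.66 ± 0.03 (adjusted p = 1.9e-22). Ereg, the EGF family ligand epiregulin, rose by 0.51 ± 0.05 with 48.6 and 50.9 CPM against 34.2 and 35.5 CPM. Hbegf, another EGF receptor ligand, and Vegfa, the endothelial growth factor, each rose by 0.37. Pdgfb rose by 0.51 ± 0.11, with its call lost without untreated library a (adjusted p = 0.076) and in DESeq2 (0.16). Csf1, the macrophage growth factor, had 147.6 and 148.2 CPM with TNF and 162 and 158 CPM untreated. Its fall of 0.11 ± 0.03 (adjusted p = 0.015) was lost whichever 1 of the 4 libraries was left out, at up to 0.19.

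Among 13 inflammatory effector genes tested, 5 rose and none fell. Ptgs2, which encodes the inducible prostaglandin synthase COX-2, had 974 and 1007 CPM with TNF and 565 and 578 CPM untreated, a rise of 0.79 ± 0.02 (adjusted p = 7.5e-27). Vcam1, a leukocyte adhesion molecule, had 25.2 and 26.7 CPM with TNF and 17 and 17.8 CPM untreated, a rise of 0.58 ± 0.06. The plasminogen activator gene Plau rose by 0.43 ± 0.03 and its receptor gene Plaur by 0.37 ± 0.04. Icam1 had 0 counts in the 4 libraries, where 3 counts would be 0.128 to 0.144 CPM, so a low level was not detectable at this depth. The toll-like receptor gene Tlr2 had 5.28 and 4.26 CPM with TNF and 6.21 and 5.94 CPM untreated (-0.34 ± 0.13, adjusted p = 0.12). The list median was 0.22, or 0.3 over the 11 with more than 3 counts.

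Survival and death genes changed little. Of 10 survival genes tested, 3 rose: the stress gene Ier3, with 362 and 359 CPM with TNF and 214 and 220.5 CPM untreated (0.73 ± 0.03), Cflar, which encodes the caspase-8 inhibitor cFLIP (0.23 ± 0.05), and the BCL2 relative Mcl1 (0.19 ± 0.03). The call of Cflar was lost without TNF library a (0.057). Birc3, which encodes the inhibitor cIAP2, had 0.548 and 0.655 CPM with TNF and 0.274 and 0.166 CPM untreated, on 30 and 10 counts (1.44 ± 0.47, adjusted p = 0.055). Of 13 pro-apoptotic genes tested, Bbc3, which encodes PUMA, rose by 0.53 ± 0.16, a call lost whichever 1 of the 4 libraries was left out (up to 0.23). The medians of these lists were 0.1 and 0.02.

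Several stress-factor genes rose. Of 18 genes for AP-1 and related bZIP factors tested, 10 rose and 1 fell, with a median of 0.26. Junb had 329.8 and 319.8 CPM with TNF and 196 and 190.3 CPM untreated, a rise of 0.75 ± 0.04 (adjusted p = 2.4e-15). The small MAF factor gene Maff had 33.5 and 30.2 CPM with TNF and 20.9 and 21.3 CPM untreated, a rise of 0.60 ± 0.06. Jund rose by 0.61 ± 0.09, Fosl2 by 0.36 ± 0.03, Mafg by 0.33 ± 0.04, Fosl1 by 0.20 ± 0.04 and Atf4 by 0.16 ± 0.03. Fosb rose by 0.68 ± 0.16, a call lost without untreated library b or TNF library b (up to 0.15), and that of Fosl1 was lost without TNF library b (0.079). The proto-oncogene Fos, at 1.6 and 1.56 CPM with TNF and 1.23 and 1.37 CPM untreated, did not pass (0.28 ± 0.24, adjusted p = 0.62).

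Of 26 other immediate-early genes, 14 rose and 1 fell, with a median of 0.2, or 0.21 over the 25 with more than 3 counts. Ier5 had 61.8 and 59.8 CPM with TNF and 36.1 and 38 CPM untreated, a rise of 0.71 ± 0.06. Rhob, a short-lived small GTPase, rose by 0.70 ± 0.07 and Phlda1 by 0.58 ± 0.05. Egr1 rose by 0.16 ± 0.05, a call lost whichever 1 of the 4 libraries was left out (up to 0.25). Klf10, a TGF-β-induced factor, was the 1 that fell, with 39.1 and 38.2 CPM with TNF and 49.7 CPM in both untreated libraries. Its fall of 0.36 ± 0.04 (adjusted p = 4.9e-08) kept its call whichever 1 of the 4 libraries was left out.

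Of 18 genes for brakes on MAP kinases, 8 rose and none fell, with a median of 0.33. Beside Dusp8, the JNK and p38 phosphatase gene Dusp16 had 75 and 75.6 CPM with TNF and 43.4 and 46.4 CPM untreated, a rise of 0.74 ± 0.05 (adjusted p = 2.6e-16). Dusp1 had 31.8 and 31.5 CPM with TNF and 20.6 and 20 CPM untreated, a rise of 0.64 ± 0.06. Dusp10 rose by 0.49 ± 0.07, the ERK phosphatase gene Dusp5 by 0.48 ± 0.04, Spry2 by 0.36 ± 0.05, Dusp6 by 0.31 ± 0.07 and Spred1 by 0.12 ± 0.03. The calls of Dusp6 and Spred1 were lost without untreated library b or TNF library b, at up to 0.17 and 0.19. Of 18 p38 and JNK pathway kinase genes tested, none rose and Map2k4 fell by 0.11 ± 0.03, a call lost whichever 1 of the 4 libraries was left out (up to 0.27), and the median was -0.02.

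Of 13 RNA decay factor genes, 4 rose with a median of 0.1. Zfp36l1, which marks AU-rich messages for decay, had 189 and 189.3 CPM with TNF and 133.1 and 132.1 CPM untreated, a rise of 0.51 ± 0.03 (adjusted p = 2.5e-17), and its relative Zfp36l2 rose by 0.27 ± 0.03. These were the 2 calls left in each fit without 1 of the 4 libraries and in DESeq2.

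Of 20 interferon genes tested, 0 passed in either direction by edgeR's quasi-likelihood test, 3 had an unadjusted p under 0.05, and DESeq2, which tested 10 of them, called 0, with a list median of -0.03. Irf1, an interferon regulatory factor, had 12.8 and 13.8 CPM with TNF and 14.5 and 14.2 CPM untreated. Of 13 heat shock genes 0 passed by edgeR and by DESeq2, with 3 at an unadjusted p under 0.05 and a median of -0.01.

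**Figure D2:**
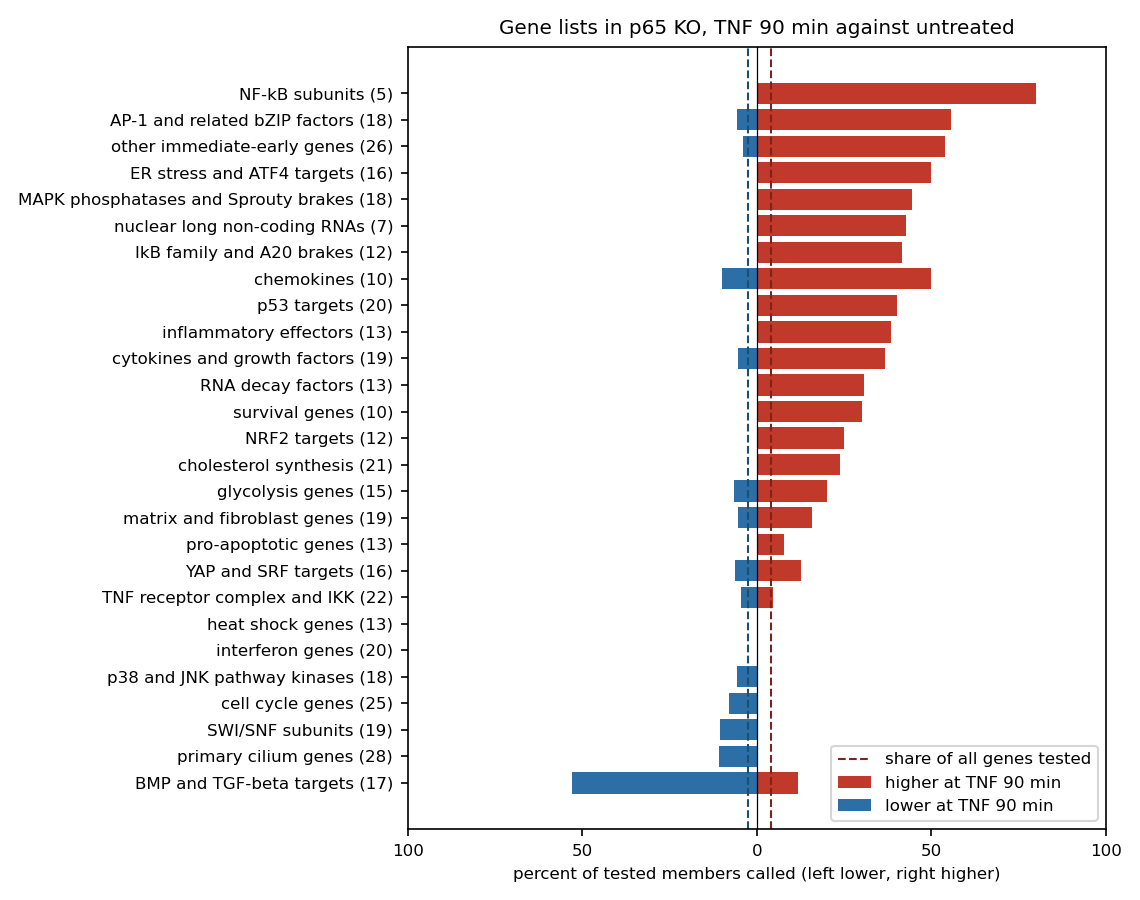
Percent of the tested members of each gene list called higher (red, to the right) or lower (blue, to the left) in p65 KO MEFs with 90 min of TNF against untreated cells; numbers tested stand in brackets and dashed lines mark the shares of all genes, 4.06% higher and 2.42% lower. NF-κB subunit, bZIP, other immediate-early, ER stress and chemokine lists reach furthest to the right, and the BMP and TGF-β list has 9 of 17 members to the left.

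Genes of several stress programmes rose in small steps. Of 16 ER stress and ATF4 target genes, 8 rose and none fell, with a median of 0.16. Chac1, which degrades glutathione, had 26.3 and 22.4 CPM with TNF and 16.4 and 17.5 CPM untreated, a rise of 0.52 ± 0.07. The cystine transporter gene Slc7a11 had 41.1 and 45.1 CPM with TNF and 30.7 and 32.4 CPM untreated, a rise of 0.45 ± 0.06. In the fits without 1 of the 4 libraries 4 to 6 of these calls were left, and DESeq2 left 4. Of 20 p53 targets, 8 rose with a median of 0.18 (0.21 over the 19 with more than 3 counts), among them Plk2, Btg2, Plk3 (0.62 ± 0.09) and the p53 antagonist Mdm2 (0.28 ± 0.05). Here 4 to 5 calls were left without 1 library. Cdkn1a, which encodes p21, rose by 0.42 ± 0.12, a call lost without untreated library a or either TNF library (up to 0.36). Plk2, Btg2 and Bbc3 are listed here and discussed above, so the lists are not separate evidence.

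Of 12 NRF2 targets 3 rose, with Slc7a11 shared with the list above and the autophagy receptor gene Sqstm1 at 0.19 ± 0.03. Of 21 cholesterol synthesis genes 5 rose, with the regulator Insig1 at 0.26 ± 0.04. Without 1 library 2 to 5 of these were left. Of 15 glycolysis genes 3 rose and Gapdh fell by 0.13 ± 0.03, while Hk2 rose by 0.21 ± 0.03. The rises of Pgk1 (0.09 ± 0.03) and Slc2a1 (0.12 ± 0.04) were lost without untreated library b or either TNF library, and that of Pgk1 without untreated library a too (up to 0.33 and 0.54). Of 16 YAP and SRF targets Ccn1 (0.31 ± 0.03) and Ankrd1 (0.30 ± 0.05) rose and Actb fell by 0.08 ± 0.02. Of 19 matrix and fibroblast genes 3 rose, with S100a4 at 0.34 ± 0.05 and the hyaluronan synthase gene Has2 at 0.25 ± 0.04, and Col6a1 fell by 0.12 ± 0.04. Of 25 cell cycle genes 2 fell, Mki67 (0.09 ± 0.02 lower) and Ccna2 (0.08 ± 0.02 lower), and of 19 SWI/SNF chromatin remodelling subunits 2 fell, Smarce1 by 0.15 ± 0.03 and Smarcc2 by 0.11 ± 0.03. The falls of Actb, Col6a1, Mki67, Ccna2 and Smarcc2 were each lost whichever 1 of the 4 libraries was left out (up to 0.34), and those of Gapdh and Smarce1 without untreated library b (0.1), with Gapdh lost without TNF library b too. The medians of these lists lay between -0.06 and 0.09.

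The list with the most falls was that of targets of BMP and TGF-β signals, which act through SMAD factors. Of 17 tested, 9 fell and 2 rose, with a median of -0.14. Id2, an inhibitor of bHLH factors, had 56.4 and 56 CPM with TNF and 78.3 and 77.6 CPM untreated, a fall of 0.47 ± 0.04 (adjusted p = 5.6e-11). Id3 had 95.7 and 96.5 CPM with TNF and 120.2 and 120.3 CPM untreated (-0.32 ± 0.03), and Id1 had 78.7 and 76.2 CPM with TNF and 93.8 and 93.2 CPM untreated (-0.27 ± 0.04). Within each group the 2 libraries of each Id gene lay close together.

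Hey1, a transcriptional repressor, had 10.6 and 11 CPM with TNF and 15.6 and 15 CPM untreated, a fall of 0.50 ± 0.09. Atoh8 fell by 0.46 ± 0.11, Snai1 by 0.27 ± 0.07, Smad9 by 0.19 ± 0.06, Ski by 0.13 ± 0.04 and Pmepa1 by 0.1 ± 0.03. The SMAD co-repressor genes Skil and Tgif1 rose by 0.27 ± 0.03 and 0.20 ± 0.05. In the fits without 1 of the 4 libraries 4 to 6 of the 9 falls were left, and DESeq2 left 3. Those of Id1, Id2, Id3 and Hey1 held in each fit without 1 library, and that of Hey1 was lost in DESeq2 (0.18). DESeq2 also lost the falls of Atoh8 (0.2), Smad9 (0.59), Snai1 (0.084), Ski (0.28) and Pmepa1 (0.31), and the rise of Tgif1 (0.087). The call of Atoh8 was lost without untreated library a or TNF library b (up to 0.07), that of Smad9 without either untreated library or TNF library a (up to 0.43), and that of Snai1 without the same libraries (up to 0.17). Those of Ski and Pmepa1 were lost whichever 1 of the 4 was left out (up to 0.17 and 0.23), and the rise of Tgif1 without untreated library b or TNF library a (up to 0.12).

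**Figure D3:**
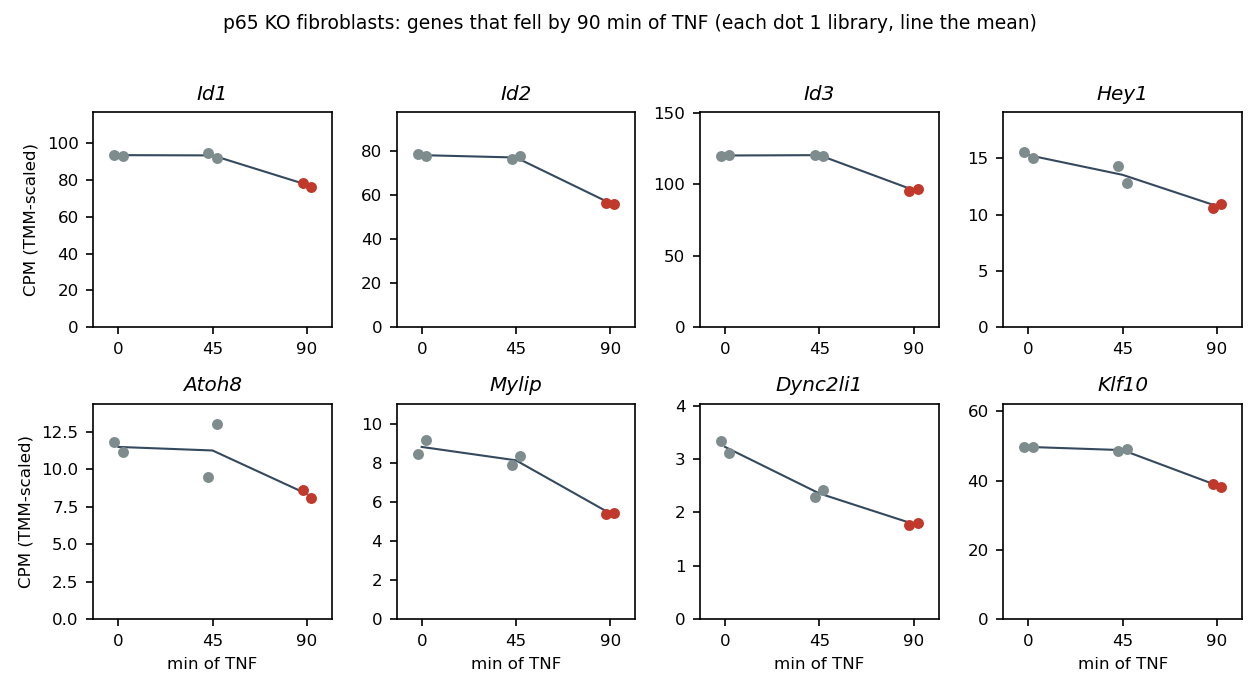
TMM-scaled CPM of 8 genes in p65 KO MEFs at 0, 45 and 90 min of TNF; each dot is 1 library (red at 90 min, grey otherwise) and the line joins the means of 2 libraries. Id1, Id2 and Id3 stood level between 0 and 45 min and lower at 90 min, where Id2 averaged 56.2 CPM against 77.9 CPM untreated.

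Under the same conditions the largest fall of a protein-coding gene was that of Dync2li1 (chr17:84626496-84655588), a subunit of the dynein motor of cilia, with 1.76 and 1.8 CPM with TNF and 3.33 and 3.12 CPM untreated (-0.85 ± 0.18, adjusted p = 0.0013). Of 28 primary cilium genes 3 fell, with Rpgrip1l (0.23 ± 0.06 lower) and Cep164 (0.19 ± 0.06 lower), a median of -0.07 and 1 to 2 of these calls left without 1 library. Mylip (chr13:45389742-45412022), the ubiquitin ligase that degrades the LDL receptor, had 5.4 and 5.45 CPM with TNF and 8.49 and 9.18 CPM untreated (-0.71 ± 0.11, adjusted p = 8e-06). The late-endosome gene Rab7b (chr1:131688695-131715439) had 6.93 and 6.18 CPM with TNF and 8.99 and 11 CPM untreated (-0.61 ± 0.1). The calls of these 3 genes held in each alternative, although all sit at low counts.

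The inward-rectifier potassium channel gene Kcnj2 fell by 0.59 ± 0.1 and the sulfotransferase gene Chst12 by 0.54 ± 0.1, both past the threshold in each fit without 1 library. The other large falls were Abcd2 (-0.83), Irgm1 (-0.70), Igsf9 (-0.66), Foxo6, Mid1 and Napb (-0.63 each), Alkbh2 (-0.61) and Zc4h2 (-0.61). These stood at means of 1.22 to 2.49 CPM with TNF, and their calls were each lost without at least 3 of the 4 libraries, at adjusted p of up to 0.38.

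Of 7 nuclear long non-coding RNAs tested, 3 rose and none fell, with a median of 0.19, or 0.23 over the 6 with more than 3 counts. Neat1 (chr19:5824708-5845478), the scaffold of paraspeckles, had 144 and 151.8 CPM with TNF and 100.3 and 99 CPM untreated, a rise of 0.57 ± 0.04 (adjusted p = 5e-15). Kcnq1ot1 had 136 and 142.5 CPM with TNF and 110.2 and 116 CPM untreated (0.30 ± 0.04), and Xist had 535 and 557 CPM with TNF and 472 and 483 CPM untreated (0.19 ± 0.03). Malat1, a nuclear speckle RNA, had 1804 and 1860 CPM with TNF and 1670 and 1695 CPM untreated and did not pass (0.12 ± 0.04, adjusted p = 0.096). The long host transcript Mir99ahg had 5.36 and 5.9 CPM with TNF and 2.92 and 3.91 CPM untreated (0.71 ± 0.14). Its call was lost without untreated library a and in DESeq2 (adjusted p = 0.16). Counts of long non-coding genes took 3.38% and 3.24% of the TNF libraries and 2.54% and 2.5% of the untreated ones.

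**Figure D4:**
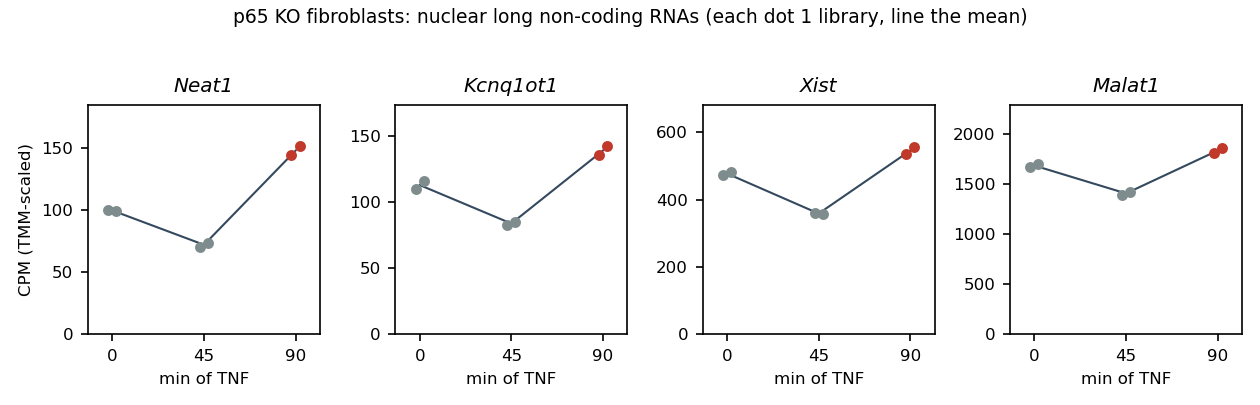
TMM-scaled CPM of Neat1, Kcnq1ot1, Xist and Malat1 in p65 KO MEFs at 0, 45 and 90 min of TNF; each dot is 1 library (red at 90 min, grey otherwise) and the line joins the means of 2 libraries. Each of the 4 RNAs was lowest at 45 min and highest at 90 min; Neat1 averaged 99.6, 72 and 147.9 CPM.

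Small RNAs in these total RNA libraries are counted from fragments and share sequence with near-identical copies, so their values are uncertain. Rnu2-10, a copy of the U2 spliceosomal RNA, had 24.5 and 22.9 CPM with TNF and 10.2 and 10.5 CPM untreated (1.19 ± 0.17), and of 67 genes annotated as small nuclear RNA 12 rose and 1 fell. Mir703 rose by 0.83 ± 0.18 and Snora23 by 0.86 ± 0.23, the call of Snora23 being lost without untreated library b or TNF library a. In DESeq2 the calls of Mir703 (adjusted p = 0.072) and Snora23 (0.17) were lost. Rny3, a Y RNA, had 7.4 and 6.76 CPM with TNF and 13 and 14.6 CPM untreated (-0.97 ± 0.13). The mitochondrial transfer RNA gene mt-Tv fell by 1.41 ± 0.25, Mir6236 by 1.6 ± 0.39, the mitochondrial ribosomal gene mt-Rnr1 by 0.85 ± 0.18 and Bc1 by 0.70 ± 0.15. The calls of Mir6236, mt-Rnr1 and Bc1 were lost without at least 3 of the 4 libraries, at up to 0.27, 0.17 and 0.15. The shares of ribosomal and small nuclear RNA given at the start moved in the same directions as mt-Rnr1 and Rnu2-10. These genes are part of those shares, so the shares are not separate evidence.

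The time course showed when these changes stood. The comparisons of 45 and 90 min share the untreated libraries, so their values are set side by side. At 45 min 271 genes were called (1.66% of 16322), 191 higher (1.17%) and 80 lower (0.49%). Jun stood at 1.2 on the log2 scale at 45 min and 1.25 at 90 min over untreated, Junb at 0.75 and 0.75, Dusp1 at 0.74 and 0.64, and Tnfaip3 at 0.65 and 0.76. For these genes the direct comparison of 90 with 45 min did not pass. Several BMP and ATF4 targets were near 0 at 45 min, with Id2 at -0.02 and -0.47, Id3 at 0.0 and -0.32, Chac1 at 0.07 and 0.52, and Slc7a11 at 0.06 and 0.45.

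At 90 against 45 min directly, 445 genes were called (2.73%), 371 higher (2.27%) and 74 lower (0.453%). Neat1 was higher at 90 min by 1.04 ± 0.04 (adjusted p = 1.5e-22), Cxcl10 by 1.03 ± 0.16, Ccl2 by 0.96 ± 0.14, Lif by 0.93 ± 0.08, Creb5 by 0.88 ± 0.08, Traf1 by 0.80 ± 0.1, Atf3 by 0.66 ± 0.09, Nfkbie by 0.64 ± 0.14 and Dusp16 by 0.61 ± 0.05. Ccl2 had 2.74 and 2.66 CPM at 45 min and 5.01 and 5.49 CPM at 90 min. The genes with the largest falls between these times were Alkbh2 (-0.63), Mylip (-0.59), Tec (-0.54), Sertad3 (-0.48), Tldc1 (-0.48), Id2 (-0.45), Atoh8 (-0.45) and Sp8 (-0.44). Genes annotated as sense-intronic, which lie within introns of other genes, had a median change over untreated of -0.43 at 45 min and 0.09 at 90 min, over 162 genes.

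The responses of the 3 lines differed by list. The change was lower in p65 KO than in WT, by a test of the difference itself, for 5 of 5 NF-κB subunit genes (Rela, the targeted gene, among them), 6 of 12 IκB and A20 genes and 5 of 10 chemokine genes, and higher for none of these. It was higher in p65 KO for 5 of 18 MAP kinase brakes and lower for 2, higher for 9 of 26 other immediate-early genes and lower for 3, and higher for 4 of 18 bZIP genes and lower for 2. Against IKK2 KO, 4 of the 5 subunit genes had a lower change in p65 KO, 0 of the 12 IκB and A20 genes differed, and 3 of the 18 MAP kinase brakes had a higher one. In all, IKK2 KO had 732 genes called at 90 min (4.48%), 549 higher (3.36%) and 183 lower (1.12%), and WT had 1521 (9.32%), 948 higher (5.81%) and 573 lower (3.51%). Of the 663 genes higher in p65 KO, 216 were also called higher in WT, which is 32.6% of the p65 KO list and 22.8% of that of WT, and 17 were called lower in WT. Of the 395 lower, 61 were also lower in WT (15.4% and 10.6%), and 24 were called higher there. In IKK2 KO 210 of the higher genes were shared (31.7% of the p65 KO list and 38.3% of that of IKK2 KO) and 27 of the lower genes (6.84% and 14.8%). A gene not shared need not differ in response. The difference from WT was not called for 462 of the 663 and 261 of the 395, and that from IKK2 KO for 546 and 346. A test of the difference of responses called 880 genes between p65 KO and WT (5.39%), 313 with a higher log2 change in p65 KO (1.92%) and 567 with a lower one (3.47%). Between p65 KO and IKK2 KO it called 273 (1.67%), 117 higher (0.717%) and 156 lower (0.956%).

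Several NF-κB target genes that rose in p65 KO had a larger log2 change in WT. Untreated means were higher in p65 KO than in WT for Ccl2, Nfkbie, Traf1 and Nfkbia, and lower for Lif. Traf1 had 5.47 CPM untreated and 11.55 CPM with TNF in p65 KO, and 0.658 and 9.69 CPM in WT. Nfkbia had 33.3 and 59.65 CPM in p65 KO, and 15.4 and 102.4 CPM in WT. With TNF, Ccl2, Nfkbie, Nfkbia and Lif averaged lower in p65 KO than in WT. Ccl2 changed by 1.55 in p65 KO and 8.7 in WT, where untreated cells had 5 counts in all, a difference of -7.15 ± 0.36 (95% interval -7.87 to -6.42). Vcam1 changed by 0.58 and 4.94 (difference -4.36 ± 0.11), Nfkbie by 0.57 and 4.04 (-3.47 ± 0.22), Traf1 by 1.07 and 3.86 (-2.79 ± 0.24), Relb by 0.40 and 2.84 (-2.44 ± 0.11), Nfkbia by 0.84 and 2.74 (-1.90 ± 0.07) and Lif by 1.93 and 3.09 (-1.17 ± 0.13), with p65 KO first. Tlr2, with a change of -0.34 in p65 KO, stood at 3.39 in WT (difference -3.74 ± 0.17), and Irf1 at -0.12 and 1.58 (-1.70 ± 0.13). Csf1 fell by 0.11 in p65 KO and rose by 1.14 in WT. Icam1, at 0 counts in p65 KO, had 55 counts with TNF and 0 untreated in WT.

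Cxcl1 cannot be set against WT, where it had 0 counts with TNF and 1 untreated; its change in IKK2 KO was 1.67 and the difference 0.07 ± 0.14 (adjusted p = 0.93). Against IKK2 KO the response of p65 KO was lower for Traf1 (-1.04 ± 0.19), Relb (-0.86 ± 0.1) and Tlr2 (-1.23 ± 0.17), and for Nfkbie the difference was -0.90 ± 0.28 (adjusted p = 0.11). For Nfkbia the difference from IKK2 KO was 0.13 ± 0.07 (adjusted p = 0.48) and for Cxcl10 it was -0.26 ± 0.22 (0.74).

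Other genes had a larger change in p65 KO. Jun had 96.6 and 89.8 CPM with TNF and 40 and 38.6 CPM untreated in p65 KO, and 178.2 and 176.8 CPM with TNF and 150 and 149.6 CPM untreated in WT. Its change was 1.25 in p65 KO, 0.45 in IKK2 KO and 0.24 in WT, so that p65 KO lay above WT by 1.0 ± 0.06 (95% interval 0.88 to 1.12) and above IKK2 KO by 0.79 ± 0.06. The untreated level of Jun was lowest in p65 KO among the 3 lines. Dusp1 rose by 0.64 in p65 KO and fell by 0.50 in WT (difference 1.15 ± 0.08). Dusp8 lay above WT by 0.94 ± 0.13 and above IKK2 KO by 0.70 ± 0.16, and Plk2 by 0.82 ± 0.04 and 0.35 ± 0.04, with a change of 0.0 in WT. Untreated means of Dusp8 and Plk2 were lower in p65 KO than in WT. Ptgs2 lay above WT by 0.49 ± 0.03 and above IKK2 KO by 0.46 ± 0.04.

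Nkx3-2, a skeletal patterning factor, had 1.68 and 1.56 CPM with TNF and 0.548 and 0.415 CPM untreated in p65 KO, a change of 1.75, against -0.16 in WT (difference 1.90 ± 0.36); IKK2 KO libraries at 0 and 90 min had 0 counts. The stress gene Gadd45a changed by 0.45 in p65 KO and -0.36 in IKK2 KO (0.81 ± 0.17), and the adhesion gene Flrt3 by 0.60 and -0.22 (0.82 ± 0.17). The rise of Gadd45a within p65 KO was lost whichever 1 of the 4 p65 KO libraries was left out, and in DESeq2 (adjusted p = 0.28). Of 17 BMP and TGF-β targets, 7 had a higher change in p65 KO than in WT and 1 a lower one. For a gene that falls in both lines, a higher change is a smaller fall. In WT 11 of the 17 fell, with a median of -0.39, and in IKK2 KO 4 fell, with a median of -0.14. In p65 KO 9 fell, with a median of -0.14, and 2 rose in each line. Id2 changed by -0.47 in p65 KO and -0.84 in WT (difference 0.37 ± 0.06), Atoh8 by -0.46 and -1.30 (0.84 ± 0.15), and Id3 by -0.32 and -0.20 (-0.13 ± 0.05, adjusted p = 0.1). Neat1 changed by 0.57 in p65 KO, 0.31 in IKK2 KO and 0.09 in WT, with p65 KO above WT by 0.48 ± 0.05 and above IKK2 KO by 0.26 ± 0.05. Untreated Neat1 averaged 99.6 CPM in p65 KO and 408.4 CPM in WT.

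**Figure D5:**
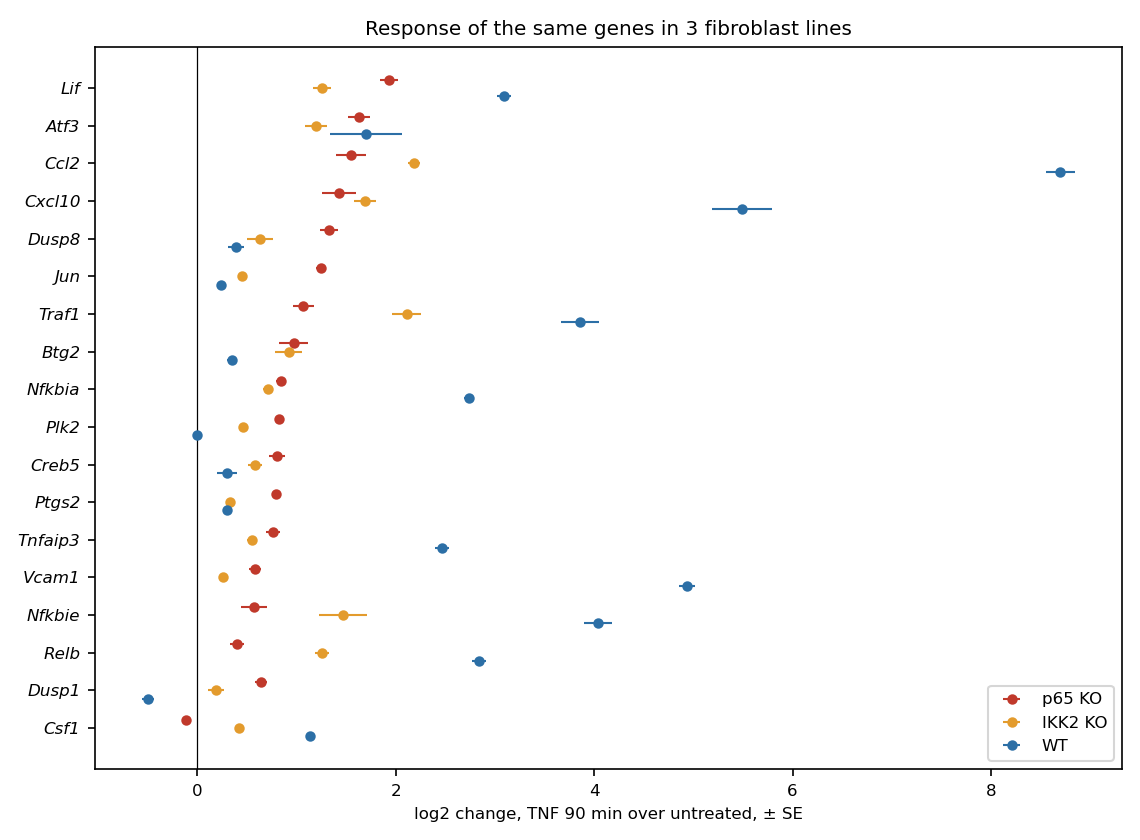
Log2 change (± SE, 2 libraries a group) of 18 genes with 90 min of TNF over untreated in p65 KO (red), IKK2 KO (orange) and WT MEFs (blue); a line with fewer than 20 counts of a gene is left out. NF-κB genes such as Ccl2 (1.55 in p65 KO, 8.7 in WT) lie far to the right in WT, while Jun (1.25 in p65 KO, 0.24 in WT), Dusp8, Plk2 and Dusp1 lie to the right in p65 KO.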

How the data were processed

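Total RNA of MEFs was sequenced as paired reads from directional libraries made with NEBNext Ultra II, per the labels' protocols. Per the submitters' processing notes the build was GRCm38, with HISAT2, Trimmomatic, Subread 1.6.2 (featureCounts), FastQC 0.11.8 and edgeR 3.26.4 among the tools. The deposited table holds estimated counts per gene for 55536 Ensembl genes, made by the authors, and 31.8% of its non-zero values are fractional. Not given in the sources used here are the annotation release, how multi-matching reads were treated and whether strand was used in counting. Gene types and coordinates come from GENCODE M21, which holds all 55536 IDs.

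Columns carry a group name but no replicate number of the labels, so libraries are called a and b in table order. Estimated counts were rounded to whole numbers and all 18 libraries were fitted together with edgeR 4.0.16 (limma 3.58.1, R 4.3.3): filterByExpr, which left 16322 genes and removed 0.0601% of counts, TMM scaling, robust quasi-likelihood F-tests (2-sided) and Benjamini-Hochberg adjustment over all genes tested, with a threshold of 0.05. Each adjusted p printed is from this fit unless DESeq2 is named. The SE is the log2 change divided by the square root of F. Responses of lines were compared as contrasts of contrasts. For the p65 KO comparison at 90 min, data with 14182 genes were simulated from the means of untreated p65 KO MEFs and the spread fitted to these libraries. Changes were planted only in genes with at least 2 CPM untreated. Of 50 genes changed by 1.25-fold 82% were recovered, and of 50 changed by 2-fold 98%, with 9 false calls among 198. These shares do not cover genes below 2 CPM. Within the 9 groups, replicate libraries differed by more than counting noise, with a chi-square of 1.13 to 4.27 times its degrees of freedom (2.9 for p65 KO with 90 min of TNF and 1.75 untreated). None was therefore counted as a copy of another. The common coefficient of variation within groups beyond counting noise was 1.93%. These values do not tell separate cultures from technical repeats.

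Named genes were Rela and Ikbkb, the 14 protein-coding genes and 5 genes of other types with the largest change each way (past the threshold, at least 2 CPM in the higher group, groups not overlapping, no predicted or clone names), the 8 largest each way for the other contrasts, and members of 34 gene lists, 7 of them cell type markers. Of the 8 for the differences, those with a few counts or none in a line were left out, as a fold is not meaningful there. Ccl2 and Cxcl10 were kept, although untreated WT had only 5 and 6 counts of them. Genes with 3 counts or fewer in a group are given no fold. Some named genes are not reported here. Members and lists were chosen with earlier results of these data known. Alternatives were RLE size factors in edgeR, no filter, a test against 1.2-fold (glmTreat) and protein-coding genes alone. Others were only the libraries compared, each library left out and the Wald test of DESeq2 1.42.0. Figures were drawn with matplotlib 3.10.9.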

Additional observations from a re-analysis of the deposited data

Results flagged for a closer look

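A test of the difference between lines passed the threshold for several of the genes named above. Set against WT, the log2 response of p65 KO MEFs to 90 min of TNF was lower for Ccl2 (-7.15), Cxcl10 (-4.06), Traf1 (-2.79), Nfkbia (-1.9), Lif (-1.17) and the targeted gene Rela (-0.59). It was also lower for Dync2li1 (-0.92), Napb (-0.8), and Irgm1, an interferon-induced GTPase gene (-1.41), which changed by -0.70 in p65 KO and 0.70 in WT. Untreated WT had 5 counts of Ccl2 and 6 of Cxcl10 in all. Cxcl10 averaged 1.84 CPM untreated and 4.92 CPM with TNF in p65 KO, and 0.128 and 6.39 CPM in WT. The response was higher in p65 KO for Jun (1.0), Dusp8 (0.94), Plk2 (0.82), Btg2 (0.62), Creb5 (0.51) and Neat1 (0.48). Among small RNAs, whose values are uncertain, it was higher for Rnu2-10 (1.01) and Mir703 (0.91) and lower for Rny3 (-1.69) and Bc1 (-0.95). Untreated means were lower in p65 KO than in WT for Jun, Dusp8, Plk2, Btg2 and Neat1, and higher for Creb5. Dusp8 averaged 7.48 CPM untreated and 18.75 CPM with TNF in p65 KO, and 13.41 and 17.69 CPM in WT. Btg2 averaged 2.54 and 4.99 CPM in p65 KO, and 42.18 and 53.99 CPM in WT.

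Set against IKK2 KO, the response of p65 KO was higher for Jun (0.79), Dusp8 (0.7), Lif (0.67), Plk2 (0.35) and Neat1 (0.26), and for Rnu2-10 (1.26) and Mir703 (0.98). It was lower for Igsf9 (-1.16), Traf1 (-1.04) and Rny3 (-0.91). Lif was thus the 1 gene among these that lay below WT and above IKK2 KO. The falls of Irgm1, Napb, Igsf9 and Bc1 within p65 KO each lost their call without at least 3 of its 4 libraries, at adjusted p of up to 0.24, 0.15, 0.35 and 0.15.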

How the results depend on the processing

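No paired analysis was possible because the columns of the count table carry no replicate number of the labels. At 90 min of TNF in p65 KO MEFs, the 1058 calls, 663 higher, 395 lower and 51 at 2-fold or more came to 83, 69, 14 and 30 by glmTreat against 1.2-fold and to 354, 256, 98 and 33 by DESeq2. Leaving out 1 library gave 452 to 572 calls, 331 to 394 higher and 116 to 186 lower. Fitting only the libraries compared gave 627 lower, and protein-coding genes alone gave 17 at 2-fold or more. At 45 min against untreated, the 271 calls came to 24 by glmTreat, 142 by DESeq2, 533 with only the libraries compared and 97 to 186 without 1 library. At 90 against 45 min the 445 calls came to 32, 145 and, without 1 library, 164 to 226. In IKK2 KO the 732 calls came to 79 by glmTreat, 338 by DESeq2 and 391 to 512 without 1 library, and in WT the 1521 calls came to 338 and 717. The difference from WT, with 880 calls, came to 173, 431 and 581 to 777, and the difference from IKK2 KO, with 273, to 21, 129 and 126 to 195. The cause of these changes was not tested. Of 145 named or listed genes called, 44 held in each alternative that tested them and 0 reversed, with 4 of the 44, Neat1, Rnu2-10, Rny3 and mt-Tv, outside the fit of protein-coding genes alone. Calls were lost for 101 by glmTreat, 46 to 51 without 1 p65 KO library, 45 by DESeq2, 15 with no filter, 4 with RLE size factors, and 1 each with protein-coding genes alone and with only the libraries compared. The median over all genes moved by at most 0.003 on the log2 scale. With 2 libraries a group, 82% of changes of 1.25-fold planted in genes with at least 2 CPM were recovered in simulated data. The spread in that simulation was the one fitted to these libraries. Genes near 1 CPM rest on few counts.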
